A study of Sus scrofa with 15 samples.

Results

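The genes described here are the 81 entries of the pig RNA-seq table whose symbol begins with SNRP, SF3A, SF3B, LSM, SRSF, HNRNP, PRPF or U2AF followed by the letters or numbers of that family, out of 43294 features measured. They were taken by symbol alone, with no use of their values, and all 81 were found in the annotation of the genome build Sscrofa11.1. By role they fall into 8 genes of the Sm core, 4 genes of the other U1 and U2 snRNP proteins, 12 genes of the SF3 complexes and U2AF, 13 LSM genes, 11 SR protein genes, 20 hnRNP genes and 13 PRPF genes. In each comparison, 70 of the 81 members reached the minimum mean value of 10 and were tested, 11 did not, and 3 of those 11 (HNRNPA3, SF3B5 and an SNRPE pseudogene) were listed at 0 in all 15 libraries.

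Porcine fetal fibroblasts (PFF, passages 2 to 5, grown to contact inhibition) were the donor cells for somatic cell nuclear transfer (SCNT), in which an enucleated oocyte receives a somatic nucleus. Untreated SCNT embryos were collected at the 4-cell stage (SCNT4c) and the 8-cell stage (SCNT8c). SCNT4c-KG embryos were injected with 1000 ng/µl mRNA of KDM4A, an H3K9 demethylase, 5 h after activation and were kept until 48 h in 0.1 µM GSK126, which inhibits EZH2, the enzyme that methylates H3K27. SCNT4c-TDG embryos came from PFF that carried a doxycycline-inducible vector for the DNA glycosylase TDG and had been selected with puromycin, and these embryos received 500 ng/ml doxycycline from 40 to 72 h, so the donor cell line, the drug and the gene differed from SCNT4c together, and embryos given doxycycline without the vector were not analysed here. Each group had 3 libraries, each embryo library was a pool of 30 embryos, p-values measure only the spread between these libraries, and PFF RNA was extracted with another kit than embryo RNA. The SCNT4c libraries are called a, b and c because their labels number them in conflicting ways.

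The spliceosome removes introns from pre-mRNA. Small nuclear RNAs carry a ring of Sm proteins, or in the case of U6 a ring of LSM proteins, and form snRNPs with further proteins that recognise the intron. U1 snRNP binds the start of the intron, and U2AF and the SF3A and SF3B complexes of U2 snRNP bind its branch site and end. PRPF proteins belong to the U4/U6.U5 tri-snRNP and to the machinery that activates it. SR proteins mostly favour the use of nearby exons, and hnRNP proteins coat the transcript and often oppose it. Embryos at these stages hold RNA stored by the oocyte as well as RNA transcribed from the transplanted genome, and these data do not tell one from the other.

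The libraries held between 12354649 and 22868038 recovered reads, with the lowest depth in SCNT4c-KG (12354649 to 15390472). TDG itself lay between 49857 and 59944 in SCNT4c-TDG and between 939 and 2541 in SCNT4c. KDM4A lay between 1429 and 1476 in SCNT4c-KG and between 134 and 313 in SCNT4c. Each was also above SCNT4c under the other treatment, TDG with 3886 to 4738 in SCNT4c-KG and KDM4A with 555 to 918 in SCNT4c-TDG. EZH2 lay between 314 and 344 in SCNT4c, 915 and 1245 in SCNT4c-KG and 983 and 1208 in SCNT4c-TDG. Mitochondrial genes took 8.26 to 9.42% of the signal in SCNT4c-TDG, 0.909 to 1.39% in SCNT4c and 1.76 to 2.47% in SCNT4c-KG. The summed fibroblast markers, 15 genes, lay between 6634 and 7943 in SCNT4c, 1763 and 2375 in SCNT4c-TDG, 2834 and 5041 in SCNT4c-KG, 3405 and 4829 in SCNT8c and 4167670 and 4452960 in PFF. Of 10 oocyte and maternal markers, BMP15, GDF9 and MOS were listed at 0 in every embryo group and 7 had a mean of at least 10. Their sum lay between 168279 and 229418 in SCNT4c, 59329.5 and 66839 in SCNT4c-TDG, 113827 and 189834 in SCNT4c-KG and 52374 and 145353 in SCNT8c. The sum of 9 cumulus cell markers lay between 1676 and 1993 in SCNT4c, 1624 and 2232 in SCNT8c, 989.9 and 1301 in SCNT4c-KG, 793 and 1013 in SCNT4c-TDG and 13144 and 15506 in PFF. PTX3 was listed at 0 in every embryo group, and INHBA made up most of this sum in the embryos, with 1307 to 1566 in SCNT4c, 647 to 709 in SCNT4c-KG and 436 to 517 in SCNT4c-TDG. In PFF, VCAN made up most of it, with 12574 to 14962.5. The fibroblast and cumulus sums were lower in every treated library than in SCNT4c and the oocyte sum, which ZP4 and H1FOO dominate, in every SCNT4c-TDG library, but single markers went the other way. DPPA3 lay between 3840 and 6149 in SCNT4c, 22118 and 25536 in SCNT4c-KG and 32164 and 38619 in SCNT4c-TDG, and ZP3 between 9.96 and 51.6 in SCNT4c, 425 and 704 in SCNT4c-KG and 73.6 and 75.9 in SCNT4c-TDG. BTG4 lay between 1439 and 1668 in SCNT4c and was above that in every treated library. Of the fibroblast markers, VIM lay between 272 and 619 for SCNT4c against 1210 to 1663 for SCNT4c-KG, and THY1 lay between 69.7 and 169.6 for SCNT4c against 428 to 843 for SCNT4c-KG. The part of these markers in the members' results was not tested. Libraries of a group correlated over all features with r between 0.765 and 0.944 in the embryos, lowest for SCNT8c replicate 3 against replicate 2, and between 0.985 and 0.986 in PFF. A bulk library does not separate a change in the number of cells or embryos contributing from a change in RNA per cell.

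Together the members took 1.25 ± 0.156% (SD, n = 3) of the signal of a library in SCNT4c, 1.75 ± 0.386% (SD, n = 3) for SCNT8c, 1.55 ± 0.0223% (SD, n = 3) in SCNT4c-TDG, 2.6 ± 0.0867% (SD, n = 3) in SCNT4c-KG and 0.742 ± 0.0229% (SD, n = 3) in PFF. The Sm core stood out from the other roles in the plot of shares: it took 0.0384 ± 0.000806% (SD, n = 3) in PFF, 0.0775 ± 0.0155% (SD, n = 3) at the untreated 4-cell stage and 0.104 ± 0.0246% (SD, n = 3) at the 8-cell stage, against 0.427 ± 0.0486% (SD, n = 3) in SCNT4c-TDG and 0.818 ± 0.0943% (SD, n = 3) in SCNT4c-KG. The hnRNP genes differed from this, at 0.766 ± 0.131% (SD, n = 3) for SCNT4c, 0.737 ± 0.13% (SD, n = 3) in SCNT4c-KG and 0.254 ± 0.0129% (SD, n = 3) in SCNT4c-TDG. A single gene carried most of the hnRNP signal in untreated embryos, since HNRNPA1 alone took 0.517 ± 0.085% (SD, n = 3) of the signal in SCNT4c. The median value over all 81 members was 995 ± 24.8 (SD, n = 3) in PFF, 291 ± 88.8 (SD, n = 3) for SCNT4c, 456 ± 127 (SD, n = 3) for SCNT8c, 956 ± 56.3 (SD, n = 3) for SCNT4c-KG and 895 ± 33.5 (SD, n = 3) in SCNT4c-TDG, so PFF lay above SCNT4c in the median gene and below it in the summed share.

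**Figure D1:**
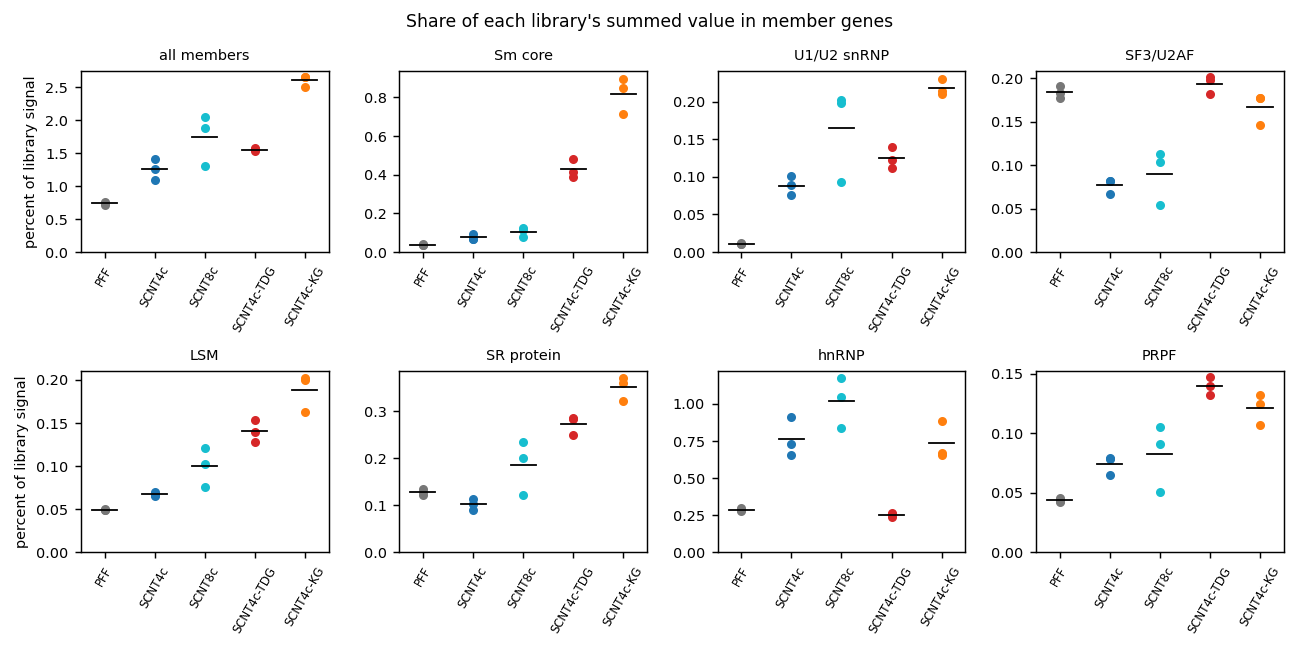
Share of each library's summed value, in percent, taken by all members and by each role, for 5 groups of 3 libraries. Points are libraries, bars are group means, and every y axis starts at 0. The Sm core panel reads at most 0.124% in untreated embryos and at least 0.388% in the treated ones.

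Per kilobase of exon, the scale on which genes can be compared with each other, HNRNPA1 had the highest level of all members in SCNT4c (42199 per kb) and SCNT8c (55323), followed in both by SNRPC (12966 and 24828) and HNRNPK (5651 and 5722). In SCNT4c-KG the order began with SNRPE (33988), SNRPC (32769.5) and HNRNPA1 (29163). In SCNT4c-TDG it began with SNRPE (24193), SNRPD1 (12397) and SNRPD3 (10329). In PFF, HNRNPK (5977) and HNRNPA1 (5929) came first. In both kinds of treated embryo an Sm core gene came first, in place of HNRNPA1.

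**Figure D2:**
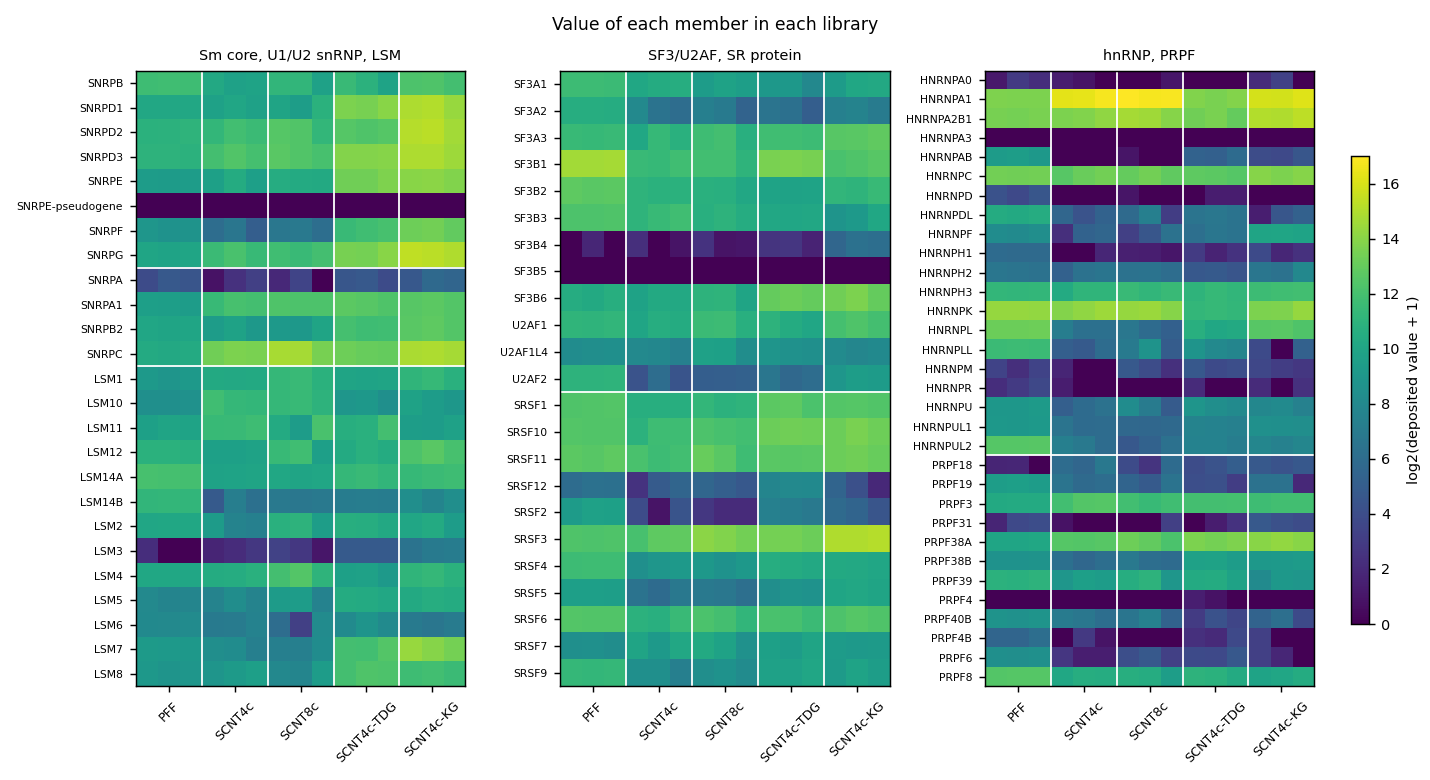
Value of the members in the 15 libraries, 1 member left out, as log2(deposited value + 1), in 3 blocks of roles, with white lines between groups. The dark rows HNRNPA3, SF3B5 and the SNRPE pseudogene were listed at 0 throughout, and the Sm core rows brighten in SCNT4c-TDG and SCNT4c-KG.

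A gene was called changed when its adjusted p (limma on log2(value + 1), Benjamini-Hochberg over all features tested) was under 0.05 and its fold change above 2. In SCNT4c-KG against SCNT4c, 40 of 70 tested members rose and 3 fell, where 17.6% of all features tested rose and 19.6% fell. The median log2 fold change was 1.49 over the tested members and -0.30 over all features. In SCNT4c-TDG against SCNT4c, 29 members rose and 8 fell, where 15.7% and 17.6% of all features did, with medians of 1.12 and -0.26. These counts describe genes that reached the minimum mean, and 4 of the 70 were under 10 in one of the compared groups in each of these comparisons. All 4 are among the rises in SCNT4c-KG (HNRNPAB, LSM3, SF3B4 and SNRPA) and 3 among those in SCNT4c-TDG (HNRNPAB, HNRNPM and LSM3). These were under 10 in SCNT4c and reached the minimum mean through groups where they are high. The mitochondrial share moved with the SCNT4c-TDG group and the depth with the SCNT4c-KG group, as given above, and their part in these counts was not tested.

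In SCNT8c against SCNT4c, 4 members rose, where 2.62% of all features did, and no member was called down by limma, where 3.16% of all features were. At an unadjusted p under 0.05 limma had 12 members higher and 5 lower, and 2107 and 3373 of all 18942 features. The tests by edgeR and DESeq2 on the recovered reads also called no member down, where 0.913% and 4.07% of all features were. Members called up were 6 by edgeR (3.53% of all features), 13 by DESeq2 (10.4%) and 0 in a fit of the 2 groups alone, which called 0 features. Without SCNT8c replicate 3 the counts were 15 up and 5 down, where 12.4% and 19.9% of all features were called, and without any one of the other libraries of this comparison at most 1 member was called up. In SCNT4c-TDG against SCNT4c-KG, 5 members were higher and 24 lower, where 7.07% and 9.13% of all features were. With the same total set in each library this split was 7 higher and 17 lower, where 10.5% and 5.83% of all features were. With quantile normalization it was 7 and 18, where 9.14% and 8.89% of all features were.

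In SCNT4c against PFF, 12 members were higher and 35 lower, where 39.7% and 38.5% of all features were. The split depended on the scaling, with 18 higher and 27 lower by edgeR on the recovered reads, where 46.3% and 30.4% of all features were. The median of all features was 0.07 in the deposited values and 0.96 by edgeR, and the median of the tested members was -1.15 and -0.38, so the members lay below the median of all features on both scales. The 3 comparisons with SCNT4c as the reference, and this one, share the same SCNT4c libraries.

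**Figure D3:**
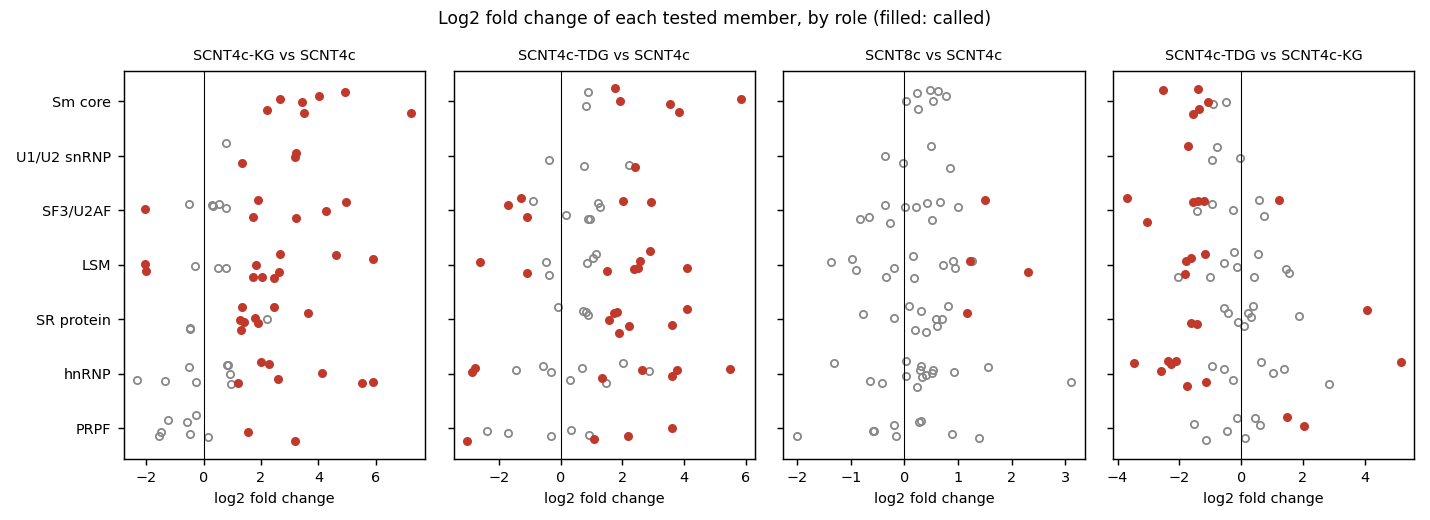
Log2 fold change of each tested member in 4 comparisons, one row of points for each role, with small vertical shifts to separate points. Filled points passed the call and open points did not. All 7 tested Sm core genes are called in SCNT4c-KG against SCNT4c, and none is called in SCNT8c against SCNT4c. The x axes differ between panels.

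The Sm core proteins SNRPB, SNRPD1, SNRPD2, SNRPD3, SNRPE, SNRPF and SNRPG form the ring on the spliceosomal small nuclear RNAs. All 7 expressed genes rose in SCNT4c-KG, as did 17.6% of all features, and 5 of the 7 rose in SCNT4c-TDG, as did 15.7%. SNRPB and SNRPD2 were the other Sm genes there. The largest change was in SNRPF (chr5:87614934-87622863, minus strand). SNRPF had values of 67.8, 100.5 and 32.4 for SCNT4c and 104, 116 and 68.7 for SCNT8c, and of 9533, 10676 and 7823 for SCNT4c-KG. In SCNT4c-TDG it had 2934, 3605 and 4271, and in PFF 479, 411 and 425. Both treated groups lay far above every other library, PFF included. The change was log2 fold change 7.23 ± 0.40 SE, adjusted p = 1.22e-08 in SCNT4c-KG and log2 fold change 5.85 ± 0.40 SE, adjusted p = 1.74e-07 in SCNT4c-TDG.

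SNRPD1 (chr6:106798201-106810178) had 852, 1056 and 854 for SCNT4c, 30803, 33919.7 and 20901 for SCNT4c-KG and 12637, 11457 and 15885 for SCNT4c-TDG. Its means were 31-fold and 14.5-fold higher than in SCNT4c, with log2 fold change 4.93 ± 0.33 SE, adjusted p = 5.12e-08 and log2 fold change 3.85 ± 0.33 SE, adjusted p = 1.05e-06. SNRPE (chr9:64560544-64567007) rose from 799.8, 1396 and 778 to 15972, 17181 and 13953 for SCNT4c-KG and to 10083, 10082 and 13367 for SCNT4c-TDG. The groups of both genes did not overlap with SCNT4c. SNRPG (chr3:72198722-72208053) rose 11.2-fold (log2 fold change 3.50 ± 0.26 SE, adjusted p = 1.28e-07) and 3.79-fold (log2 fold change 1.93 ± 0.26 SE, adjusted p = 5.52e-05), and SNRPD3 (chr14:49585177-49598015) 6.37-fold and 3.37-fold. In SCNT4c-KG the SNRPG libraries held 43407, 39125 and 32293, against 3037, 4460.1 and 2800.5 for SCNT4c.

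SNRPD2 and SNRPB separated the treatments. SNRPD2 (chr6:52035900-52042474) had 2465, 3735 and 3029 for SCNT4c, 34686, 38355 and 25797 for SCNT4c-KG and 5800.2, 5195 and 5875 for SCNT4c-TDG. It rose in SCNT4c-KG (log2 fold change 3.42 ± 0.32 SE, adjusted p = 1.59e-06), while its change in SCNT4c-TDG was under the fold limit (log2 fold change 0.89 ± 0.32 SE, adjusted p = 0.0441). The direct comparison of SCNT4c-TDG with SCNT4c-KG was called as well (log2 fold change -2.53 ± 0.32 SE, adjusted p = 0.000162). SNRPB, which is annotated as a non-coding RNA in this release (chr17:33072104-33094847), had 1232, 851 and 931 for SCNT4c, 4935, 5062 and 3963 for SCNT4c-KG and 2948, 1898 and 937 for SCNT4c-TDG. SNRPB rose in SCNT4c-KG (log2 fold change 2.22 ± 0.43 SE, adjusted p = 0.00109), and its SCNT4c-TDG libraries overlapped with SCNT4c.

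Every Sm core gene had a lower mean in SCNT4c-TDG than in SCNT4c-KG, and 5 of the 7 were called lower, as were 9.13% of all features. SNRPG was lower (log2 fold change -1.56 ± 0.26 SE, adjusted p = 0.00101), a call lost with quantile normalization (log2 fold change -0.98, adjusted p = 0.0186). The call of SNRPF (log2 fold change -1.38 ± 0.40 SE, adjusted p = 0.0275) was lost without SCNT4c-KG replicate 1 or 2 or SCNT4c-TDG replicate 1, 2 or 3 (log2 fold change -1.51 to -1.24, adjusted p = 0.0586 to 0.116). That of SNRPD1 (log2 fold change -1.08 ± 0.33 SE, adjusted p = 0.0355) was lost without SCNT4c-KG replicate 1 or 2 or SCNT4c-TDG replicate 1, 2 or 3 (log2 fold change -1.22 to -0.94, adjusted p = 0.0614 to 0.137). It was lost as well with quantile normalization (log2 fold change -0.36, adjusted p = 0.476), with the same total in each library (log2 fold change -0.72, adjusted p = 0.125), by edgeR, among all features above 0 (adjusted p = 0.0758 and 0.0579) and by DESeq2, where it was under the fold limit (log2 fold change -0.96, adjusted p = 0.0292). That of SNRPB (log2 fold change -1.41 ± 0.43 SE, adjusted p = 0.0369) was lost without SCNT4c-KG replicate 1, 2 or 3 or SCNT4c-TDG replicate 2 or 3 (log2 fold change -1.52 to -0.97, adjusted p = 0.0631 to 0.185). Quantile normalization and the same total in each library also ended the calls of SNRPF (adjusted p = 0.113 and 0.109) and SNRPB (adjusted p = 0.0802 and 0.129), and edgeR, DESeq2 and the test of all features above 0 ended that of SNRPB (adjusted p = 0.0588 to 0.0963). The SNRPD2 call held under every alternative run. SNRPE and SNRPD3 were not called (-0.50 and -0.91 on the log2 scale, adjusted p = 0.239 and 0.0183).

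Between the 4-cell and the 8-cell stage no such rise was detected. No Sm core gene was called by limma in SCNT8c against SCNT4c, none had an unadjusted p under 0.05, and the differences lay between 0.03 and 0.77 on the log2 scale. The 95% interval of the difference was -0.22 to 1.47 for SNRPF, -0.47 to 0.93 for SNRPD1 and -0.06 to 1.11 for SNRPE. Without SCNT8c replicate 3, SNRPB was called higher in SCNT8c (log2 fold change 1.25, adjusted p = 0.0157), and no other Sm core gene was. Against PFF, SNRPF (log2 fold change -2.83 ± 0.42 SE, adjusted p = 0.000971) and SNRPB (log2 fold change -1.79 ± 0.16 SE, adjusted p = 9.44e-05) were lower in SCNT4c, and SNRPD3 and SNRPG were higher (1.15 and 1.76 on the log2 scale, adjusted p = 0.000479 and 0.000252).

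**Figure D4:**
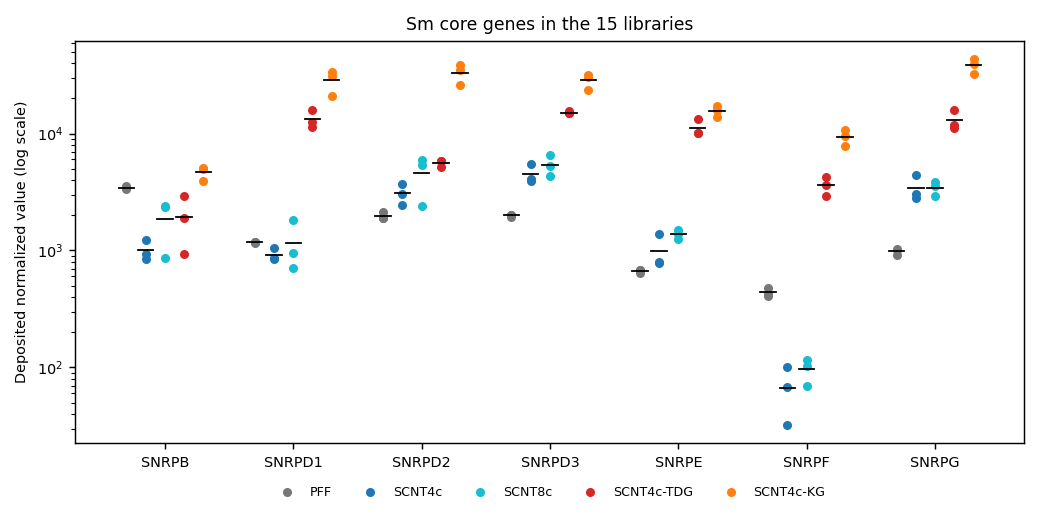
Deposited normalized value of the 7 expressed Sm core genes in the 15 libraries, on a log scale. Points are libraries, black bars are group means, and colours mark the 5 groups. SNRPF lies between 32.4 and 116 in the 6 untreated embryo libraries and between 2934 and 10676 in the 6 treated ones.

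The 5 Sm core genes that rose in both treated groups are shown with the 250 bases before their annotated starts, read 5′ to 3′ on the gene's strand from Sscrofa11.1, and with LSM10, which fell in both, as a contrast. The windows are chr6:106797951-106798200 (plus strand) for SNRPD1, chr14:49584927-49585176 (plus strand) for SNRPD3, chr9:64560294-64560543 (plus strand) for SNRPE, chr5:87622864-87623113 (minus strand) for SNRPF, chr3:72198472-72198721 (plus strand) for SNRPG and chr6:92496887-92497136 (minus strand) for LSM10. Capitals mark exact matches on either strand. The letters searched were CCGGAAG, a core that ETS factors bind. They were also CCAAT, the box of NF-Y, and GGGCGG, a box of Sp1. Last came AAGATGG, a core of YY1, together with the TATA box TATAAA.
SNRPD1: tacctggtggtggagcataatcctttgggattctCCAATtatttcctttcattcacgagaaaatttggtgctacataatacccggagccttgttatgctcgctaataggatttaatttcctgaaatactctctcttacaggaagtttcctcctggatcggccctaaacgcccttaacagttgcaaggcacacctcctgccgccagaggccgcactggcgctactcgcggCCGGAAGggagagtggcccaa
SNRPD3: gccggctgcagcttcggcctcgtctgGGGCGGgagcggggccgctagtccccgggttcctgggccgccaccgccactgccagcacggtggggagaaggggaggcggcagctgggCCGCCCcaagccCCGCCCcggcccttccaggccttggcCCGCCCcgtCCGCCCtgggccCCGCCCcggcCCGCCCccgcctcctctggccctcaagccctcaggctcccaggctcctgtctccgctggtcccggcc
SNRPE: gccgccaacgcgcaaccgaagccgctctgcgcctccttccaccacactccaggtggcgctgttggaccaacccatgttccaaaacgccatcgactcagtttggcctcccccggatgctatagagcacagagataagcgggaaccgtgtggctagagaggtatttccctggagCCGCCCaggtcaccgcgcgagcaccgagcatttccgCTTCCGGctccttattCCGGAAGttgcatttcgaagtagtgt
SNRPF: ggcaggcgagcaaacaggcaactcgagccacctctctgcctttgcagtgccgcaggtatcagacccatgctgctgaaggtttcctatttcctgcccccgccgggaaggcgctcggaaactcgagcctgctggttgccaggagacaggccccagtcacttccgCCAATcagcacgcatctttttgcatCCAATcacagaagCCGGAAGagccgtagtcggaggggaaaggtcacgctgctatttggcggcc
SNRPG: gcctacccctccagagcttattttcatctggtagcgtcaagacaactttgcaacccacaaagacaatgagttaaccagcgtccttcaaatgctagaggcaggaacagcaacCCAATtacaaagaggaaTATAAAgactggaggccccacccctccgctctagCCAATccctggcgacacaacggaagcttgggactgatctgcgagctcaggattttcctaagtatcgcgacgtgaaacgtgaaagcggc
LSM10: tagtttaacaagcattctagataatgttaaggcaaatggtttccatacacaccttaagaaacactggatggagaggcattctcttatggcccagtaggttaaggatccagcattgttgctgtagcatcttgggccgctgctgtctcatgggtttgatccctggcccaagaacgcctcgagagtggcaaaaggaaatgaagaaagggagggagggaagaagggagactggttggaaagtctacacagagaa

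CCGGAAG stood in 3 of these 5 Sm windows, 21 bases before the start in SNRPD1, 50 in SNRPF, and 26 and, on the opposite strand, 42 in SNRPE. Over all members, CCGGAAG was in 18 of 81 windows (22.2%) and in 4 of the 8 of the Sm core, against 7.48% of 20651 windows of protein-coding genes. It was in 2 of the 4 U1 and U2 windows, in 10 to 30.8% of the hnRNP, SF3 and U2AF, SR and PRPF windows and in 0 of 13 LSM windows. CCAAT was in 39.5% of member windows and 32% of all, from 0 of 4 in U1 and U2, 23.1% in PRPF, 25% in SF3 and U2AF and 27.3% in SR to 38.5% in LSM, 50% in the Sm core and 70% in hnRNP windows. GGGCGG was in 56.8% of member windows and 44.5% of all, AAGATGG in 3.7% and 3.71%, and TATAAA in 3.7% and 10.4%. The LSM10 window held none of these letters. The median GC content was 59.6% in member windows and 57.2% in all, and the annotated starts were not checked against these libraries.

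The other proteins of U1 and U2 snRNP are SNRPA and SNRPC of U1 and SNRPA1 and SNRPB2 of U2. SNRPB2 (chr17:25363107-25373289) had 658, 907 and 531 for SCNT4c, 6526, 6989.8 and 5593 for SCNT4c-KG and 4141, 3338 and 3535 for SCNT4c-TDG, and rose in both treated groups (log2 fold change 3.22 ± 0.31 SE, adjusted p = 1.92e-06 in the former, log2 fold change 2.42 ± 0.31 SE, adjusted p = 3.46e-05 in the latter). SNRPC (chr7:30708243-30723480), which helps U1 hold the start of the intron, had 10027, 12811 and 12090.3 for SCNT4c. It rose in SCNT4c-KG to 29647, 31271 and 27363 (log2 fold change 1.34 ± 0.30 SE, adjusted p = 0.00259) and had 9930.4, 8642 and 8104 for SCNT4c-TDG. The difference between SCNT4c-TDG and SCNT4c was not called (log2 fold change -0.39 ± 0.30 SE, adjusted p = 0.33), and SNRPC was lower in SCNT4c-TDG than in SCNT4c-KG (log2 fold change -1.73 ± 0.30 SE, adjusted p = 0.00128). Of these 4 genes, SNRPC and SNRPA1 were called higher in SCNT4c than in PFF, 8.99-fold and 4.97-fold. SNRPA was low throughout (0.789 to 8.3 in SCNT4c, 24.5 to 54.6 in SCNT4c-KG), and its call in SCNT4c-KG (log2 fold change 3.18 ± 1.02 SE, adjusted p = 0.023) was lost without SCNT4c library a or SCNT4c-KG replicate 2 or 3 (log2 fold change 2.52 to 3.07, adjusted p = 0.0593 to 0.0894), by edgeR (adjusted p = 0.0701), with a pseudocount of 0.1 (adjusted p = 0.0941) and when the assembled transcript at its locus was added (adjusted p = 0.0582).

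The SF3 complexes and U2AF gave members in both directions. SF3B6 (chr3:114605863-114618123), the subunit at the branch adenosine, had 905, 1269.7 and 1219 for SCNT4c, 10402, 13066 and 8213 for SCNT4c-KG and 8249.5, 9277 and 8167 for SCNT4c-TDG, and rose in both (log2 fold change 3.21 ± 0.31 SE, adjusted p = 2.23e-06 and log2 fold change 2.93 ± 0.31 SE, adjusted p = 7.01e-06). SF3B3 (chr6:13524519-13578681), a large scaffold subunit of SF3B, fell in both, from 2095, 2750.0 and 3459.7 to 441, 589 and 1106 (log2 fold change -2.04 ± 0.34 SE, adjusted p = 0.000343) and to 1146, 1045 and 1148 (log2 fold change -1.29 ± 0.34 SE, adjusted p = 0.00939). These subunits of the same complex moved apart, and the SCNT4c libraries overlapped with neither treated group in these 2 genes.

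SF3B1 (chr15:101274968-101338018), the largest subunit, was called in SCNT4c-TDG alone against SCNT4c. It had 2987, 2672 and 3490.4 for SCNT4c, 4515, 5152 and 6194 for SCNT4c-KG and 12352, 12993 and 11817 for SCNT4c-TDG. Its difference from SCNT4c was under the fold limit in SCNT4c-KG (log2 fold change 0.79 ± 0.27 SE, adjusted p = 0.0317) and above it in SCNT4c-TDG (log2 fold change 2.03 ± 0.27 SE, adjusted p = 5.37e-05), and the treated groups differed from each other (log2 fold change 1.24 ± 0.27 SE, adjusted p = 0.00597). All embryo groups lay below PFF, where it had 25602, 25639 and 26377. SF3B2 and SF3A1 fell in SCNT4c-TDG (log2 fold change -1.09 ± 0.27 SE, adjusted p = 0.00594 and log2 fold change -1.72 ± 0.37 SE, adjusted p = 0.00236). The SF3B2 fall was under the fold limit with the same total in each library (log2 fold change -0.82, adjusted p = 0.0454), by edgeR (log2 fold change -0.82, adjusted p = 0.0402) and by DESeq2 (log2 fold change -0.80, adjusted p = 0.0169).

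U2AF1 and U2AF2, the small and large subunits of the factor that reads the intron end, rose in SCNT4c-KG. U2AF2 (chr6:59773205-59789403) had 18.9, 67.3 and 20.8 for SCNT4c, 477, 699 and 637 for SCNT4c-KG, 100.3, 52.9 and 67.3 for SCNT4c-TDG and 2040.1, 2006 and 2081 for PFF. SCNT4c-KG stood between the other embryos and PFF and above SCNT4c (log2 fold change 4.27 ± 0.56 SE, adjusted p = 4.34e-05). U2AF1 rose from 1006, 1515 and 1383 to 3974, 5014 and 3889 (log2 fold change 1.73 ± 0.32 SE, adjusted p = 0.000791), with 1992, 1401 and 1083 for SCNT4c-TDG. Both genes were lower in SCNT4c-TDG than in SCNT4c-KG (log2 fold change -3.05 and -1.56, adjusted p = 0.00209 and 0.0043). SF3A1 and SF3B4 were lower in SCNT4c-TDG than in SCNT4c-KG as well. The SF3A1 call (log2 fold change -1.21 ± 0.37 SE, adjusted p = 0.0352) was lost without SCNT4c-KG replicate 2 or 3 or SCNT4c-TDG replicate 1, 2 or 3 (log2 fold change -1.40 to -0.84, adjusted p = 0.0511 to 0.177). It was lost as well by edgeR (adjusted p = 0.0999), among all features above 0 (adjusted p = 0.0578) and with the same total in each library (log2 fold change -0.85, adjusted p = 0.147). The SF3B4 call (adjusted p = 0.0158) was lost without SCNT4c-KG replicate 2 or SCNT4c-TDG replicate 3 (log2 fold change -3.55 to -3.40, adjusted p = 0.0583 to 0.0719), by edgeR (adjusted p = 0.0547) and with a pseudocount of 0.1 (adjusted p = 0.104). SF3A3 rose in SCNT4c-KG (log2 fold change 1.90 ± 0.35 SE, adjusted p = 0.000705), and SF3B4 had 3.94, 0 and 0.83 for SCNT4c and 49, 78.7 and 68.4 for SCNT4c-KG. SF3A2 had 252, 87.4 and 67.3 for SCNT4c, 172, 198 and 131 for SCNT4c-KG and 90.3, 77.5 and 32.1 for SCNT4c-TDG, with no call of the gene's own entry in either comparison. An assembled transcript at its locus had means of 438 in SCNT4c, 1111 in SCNT4c-KG and 29.7 in SCNT4c-TDG, and with it added SF3A2 was called higher in SCNT4c-KG (log2 fold change 1.27, adjusted p = 0.0429) and lower in SCNT4c-TDG (log2 fold change -2.53, adjusted p = 0.000747).

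U2AF1L4, a paralog of U2AF1, was one of the 4 members called higher in SCNT8c than in SCNT4c. It had 253, 233 and 165 for SCNT4c and 861, 821 and 321 for SCNT8c (log2 fold change 1.51 ± 0.41 SE, adjusted p = 0.0454). The call was lost without SCNT4c library a, b or c or SCNT8c replicate 1 or 2 (log2 fold change 1.26 to 1.63, adjusted p = 0.0981 to 0.166), among all features above 0 (adjusted p = 0.0704) and in a fit of the 2 groups alone (adjusted p = 0.211). SCNT8c replicate 3 was the lowest of its group, and without it the difference was larger (log2 fold change 1.97, adjusted p = 0.000391).

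The LSM genes divide by the ring they belong to. LSM2 to LSM8 form the nuclear ring on U6, LSM1 replaces LSM8 in a cytoplasmic ring that takes part in mRNA decay, LSM10 and LSM11 belong to the U7 snRNP that processes histone mRNA, and LSM14A and LSM14B act in translational repression. LSM7 (chr2:76247010-76251824) had the largest change of the U6 ring, from 333, 307 and 164 for SCNT4c to 21036, 15595 and 11003 for SCNT4c-KG (log2 fold change 5.90 ± 0.38 SE, adjusted p = 3.52e-08) and 3964, 3732 and 5682 for SCNT4c-TDG (log2 fold change 4.09 ± 0.38 SE, adjusted p = 1.84e-06). In SCNT8c it had 163, 161 and 307, which overlapped with SCNT4c. LSM5 rose 5.97-fold and 5.47-fold (adjusted p = 0.000377 and 0.000593), and LSM3 had 2.37, 3.5 and 5.81 for SCNT4c, 88.2, 121 and 138 for SCNT4c-KG and 26.8, 26.8 and 26.8 for SCNT4c-TDG.

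Of the 7 genes of the U6 ring, LSM2, LSM3, LSM5, LSM7 and LSM8 rose in both treated groups. The LSM3 call in SCNT4c-TDG (adjusted p = 0.0234) was lost without any of SCNT4c library a or b and SCNT4c-TDG replicate 1, 2 or 3 (adjusted p = 0.0574 to 0.0698). LSM8 rose 5.43-fold in SCNT4c-KG and 7.29-fold in SCNT4c-TDG, but the assembled transcripts at its locus had a summed mean of 1552 in SCNT4c and 121 in SCNT4c-KG. With those added, the change in SCNT4c-KG was no longer called (log2 fold change 0.72, adjusted p = 0.211), and that in SCNT4c-TDG, where those transcripts had 452, was smaller (log2 fold change 1.22, adjusted p = 0.045, against 2.88 for the gene alone). The LSM2 call in SCNT4c-KG (log2 fold change 1.82 ± 0.51 SE, adjusted p = 0.0112) was lost without SCNT4c library b or c or SCNT4c-KG replicate 2 (log2 fold change 1.46 to 1.60, adjusted p = 0.0515 to 0.0561). LSM6 had 122, 136 and 186 for SCNT4c, 119, 100.3 and 135 for SCNT4c-KG and 276, 454 and 275 for SCNT4c-TDG, and was called higher in SCNT4c-TDG once its assembled transcript was added (log2 fold change 1.51, adjusted p = 0.0041). LSM4 fell in SCNT4c-TDG (log2 fold change -1.10 ± 0.34 SE, adjusted p = 0.0223), a call lost without SCNT4c library b or c or SCNT4c-TDG replicate 3 (log2 fold change -1.13 to -0.91, adjusted p = 0.0539 to 0.0963) and under the fold limit with the same total in each library (log2 fold change -0.83, adjusted p = 0.0958), by edgeR (log2 fold change -0.83, adjusted p = 0.0971), by DESeq2 (log2 fold change -0.79, adjusted p = 0.102) and with quantile normalization (log2 fold change -0.98, adjusted p = 0.0357).

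The U7 genes went the other way. LSM10 (chr6:92489921-92496886, minus strand), whose start region is printed above, had 3486, 2532 and 2478 for SCNT4c, 903, 671 and 500.2 for SCNT4c-KG and 494, 537 and 354 for SCNT4c-TDG. It fell in both treated groups (log2 fold change -2.06 ± 0.31 SE, adjusted p = 0.00016 and log2 fold change -2.62 ± 0.31 SE, adjusted p = 2.09e-05), towards its PFF values of 349, 349 and 385. LSM11 (chr16:65587502-65600605) had 2847, 2951 and 3405 for SCNT4c and fell to 720.4, 687 and 856 for SCNT4c-KG (log2 fold change -2.02 ± 0.52 SE, adjusted p = 0.00729). In SCNT4c-TDG it had 1579, 1747 and 3941, a spread that overlapped with SCNT4c. Both U7 genes were higher in SCNT4c than in PFF, 7.84-fold for LSM10 and 3.4-fold for LSM11.

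LSM14A rose from 868, 913 and 989 to 2648, 3121 and 3431 for SCNT4c-KG and 2569, 2907 and 2318 for SCNT4c-TDG (log2 fold change 1.72 ± 0.25 SE, adjusted p = 0.000109 and log2 fold change 1.49 ± 0.25 SE, adjusted p = 0.00039). LSM14B had 26.8, 152 and 78 for SCNT4c, 335, 202 and 342 for SCNT4c-KG and 140.5, 143 and 143 for SCNT4c-TDG and was called in SCNT4c-KG alone (adjusted p = 0.00965, against 0.158 in SCNT4c-TDG). Its difference between the treated groups was not called (log2 fold change -0.996). LSM14A and LSM14B were lower in SCNT4c than in PFF (log2 fold change -2.13 and -5.08). LSM12 rose in SCNT4c-KG (log2 fold change 2.65 ± 0.43 SE, adjusted p = 0.000274). LSM2 and LSM4 were 2 of the 4 members called higher in SCNT8c. LSM2 had 651, 193 and 168 for SCNT4c and 1810.2, 2008 and 709 for SCNT8c, and the call (log2 fold change 2.31 ± 0.51 SE, adjusted p = 0.0254) was lost without SCNT4c library b or c or SCNT8c replicate 1 or 2 (log2 fold change 1.95 to 2.11, adjusted p = 0.0741 to 0.0997). LSM4 had 1406, 1481 and 1758 for SCNT4c and 3949.9, 5636 and 2124 for SCNT8c, and its call (log2 fold change 1.23 ± 0.34 SE, adjusted p = 0.0484) was lost when any 1 of 5 libraries was left out, namely without SCNT4c library a, b or c or SCNT8c replicate 1 or 2 (log2 fold change 0.91 to 1.32, adjusted p = 0.0872 to 0.171). It was lost as well with a pseudocount of 0.1 (adjusted p = 0.0533), with the same total in each library (adjusted p = 0.0507) and among all features above 0 (adjusted p = 0.0773). In a fit of the 2 groups alone the calls of LSM2 (adjusted p = 0.198) and LSM4 (adjusted p = 0.211) were lost.

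Of the 11 SR protein genes, 8 rose in SCNT4c-KG and 7 in SCNT4c-TDG (17.6% and 15.7% of all features), and 5 of them (SRSF1, SRSF4, SRSF5, SRSF9 and SRSF10) rose in both. SRSF3 (chr7:32289464-32298652) encodes the smallest SR protein. Its libraries had 4266, 7043 and 7269.8 for SCNT4c, 16611, 14285 and 10598 for SCNT8c, 32247, 32441 and 34533 for SCNT4c-KG and 11248, 11419 and 9375 for SCNT4c-TDG. SCNT4c-KG lay above every other library, PFF included, and rose against SCNT4c (log2 fold change 2.46 ± 0.26 SE, adjusted p = 5.3e-06), while SCNT4c-TDG stayed under the fold limit (log2 fold change 0.82 ± 0.26 SE, adjusted p = 0.024). SRSF3 was also called higher in SCNT8c (log2 fold change 1.17 ± 0.26 SE, adjusted p = 0.0255), a call lost without SCNT4c library a or b or SCNT8c replicate 1 or 2 (log2 fold change 0.93 to 1.29, adjusted p = 0.07 to 0.101) and in a fit of the 2 groups alone (adjusted p = 0.201).

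SRSF5 (chr7:93393379-93398510) rose from 89.9, 60.3 and 110.4 to 1003, 1194 and 985 for SCNT4c-KG and 339, 438 and 412 for SCNT4c-TDG (log2 fold change 3.63 ± 0.38 SE, adjusted p = 4.93e-06 and log2 fold change 2.21 ± 0.38 SE, adjusted p = 0.000448). SRSF1 (chr12:34278363-34282164), the best known SR protein, had 1639.8, 1644 and 1629.8 for SCNT4c, 5709, 5909.8 and 5462 for SCNT4c-KG and 6825, 6987 and 4631 for SCNT4c-TDG, which gave 3.48-fold and 3.75-fold rises. SRSF10, which can act as a repressor, rose 3.65-fold and 3.41-fold. SRSF4 and SRSF9 rose by between 1.33 and 1.74 on the log2 scale. Of these 5 genes, SRSF5 was the one called lower in SCNT4c-TDG than in SCNT4c-KG (log2 fold change -1.42 ± 0.38 SE, adjusted p = 0.0191). That call was lost without SCNT4c-KG replicate 1 or 2 or SCNT4c-TDG replicate 1, 2 or 3 (log2 fold change -1.50 to -1.31, adjusted p = 0.0531 to 0.0867) and with the same total in each library (adjusted p = 0.0812).

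SRSF6 and SRSF11 rose in SCNT4c-KG (2.42-fold and 2.42-fold, adjusted p = 0.00385 and 0.00371), and with quantile normalization SRSF11 was under the fold limit (log2 fold change 0.96, adjusted p = 0.0236). Per kilobase, SRSF6 (2099) and SRSF3 (1571) were the highest SR genes of SCNT4c. SRSF2 and SRSF12 rose in SCNT4c-TDG. SRSF2 (chr12:4800578-4803767) had 14.2, 0.874 and 19.9 for SCNT4c, 57.2, 44.4 and 21.4 for SCNT4c-KG, 172, 146 and 116 for SCNT4c-TDG and 641, 849 and 797 for PFF (log2 fold change 4.09 ± 0.90 SE, adjusted p = 0.00285 for SCNT4c-TDG). SRSF12 had 4.73, 28 and 46.5 for SCNT4c, 44.1, 16.5 and 2.85 for SCNT4c-KG and 207, 259 and 272 for SCNT4c-TDG. Its difference between the treated groups (log2 fold change 4.08 ± 0.92 SE, adjusted p = 0.00716) was smaller when the assembled transcripts of its locus were added (log2 fold change 1.04, adjusted p = 0.0546), and it was then called higher in SCNT4c-KG than in SCNT4c (log2 fold change 1.14, adjusted p = 0.019). SRSF7 had 962, 576 and 1187 for SCNT4c, 655, 598 and 618 for SCNT4c-KG and 824, 679 and 952 for SCNT4c-TDG and was the SR gene called higher in SCNT4c than in PFF (log2 fold change 1.31 ± 0.29 SE, adjusted p = 0.00591). Against PFF, 6 of the 11 SR genes tested were lower in SCNT4c, led by SRSF2 (-6.49 on the log2 scale), where 38.5% of all features were lower.

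Of the 15 hnRNP genes tested, 7 rose in SCNT4c-KG, where 17.6% of all features did, and 5 rose and 2 fell in SCNT4c-TDG, where 15.7% and 17.6% did, so the share of hnRNP genes that fell (13.3%) was no higher than that of all features. The 2 that fell, HNRNPA1 and HNRNPK, were the most abundant hnRNP genes per kilobase in SCNT4c. HNRNPA1 (chr5:19485033-19491418), a repressor of exon use, had 81160.0, 85909 and 113849 for SCNT4c and 139636, 109914 and 118733 for SCNT8c. It had 61935, 57826 and 74380.2 for SCNT4c-KG, 13809.7, 12234 and 14412 for SCNT4c-TDG and 13478, 13046 and 12944 for PFF. The SCNT4c-TDG libraries overlapped with PFF and lay far below every other embryo library. The fall was 6.94-fold in SCNT4c-TDG (log2 fold change -2.78 ± 0.22 SE, adjusted p = 5.18e-07), and the difference in SCNT4c-KG was not called (log2 fold change -0.53 ± 0.22 SE, adjusted p = 0.0699). The treated groups differed from each other (log2 fold change -2.26 ± 0.22 SE, adjusted p = 1.88e-05).

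HNRNPK (chr10:30975639-30987955), which binds C-rich RNA, had 15044, 18433 and 23247 for SCNT4c, 13083, 13686 and 19998 for SCNT4c-KG and 2469, 2619.6 and 2465 for SCNT4c-TDG. SCNT4c-TDG was the one group of the 5 with low HNRNPK, since PFF had 20032, 20141 and 19824 and SCNT8c 20398, 21935 and 15103. It fell 7.51-fold against SCNT4c (log2 fold change -2.89 ± 0.26 SE, adjusted p = 1.43e-06) and was lower than in SCNT4c-KG too (log2 fold change -2.60 ± 0.26 SE, adjusted p = 2.16e-05). HNRNPA2B1 rose in SCNT4c-KG, from 12850.1, 14269 and 18549.8 to 33291, 31568 and 39636 (log2 fold change 1.20 ± 0.26 SE, adjusted p = 0.0025), a change under the fold limit with quantile normalization (log2 fold change 0.95, adjusted p = 0.0231), and it had 10388, 12416 and 8215 for SCNT4c-TDG. HNRNPC, a protein of the hnRNP core particle, had 6051, 8732 and 10578 for SCNT4c, 15420.4, 13113 and 15161 for SCNT4c-KG and 7187, 6605 and 5977 for SCNT4c-TDG, with no call against SCNT4c. In SCNT4c-TDG the mitochondrial share was also higher than in any other group, as given above, and its part in these falls was not tested.

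HNRNPL and HNRNPF were low in untreated embryos. HNRNPL (chr6:47643561-47655856), which binds CA repeats, had 148, 77.8 and 78 for SCNT4c, 107, 59.9 and 35.9 for SCNT8c, 6029, 6461 and 5059 for SCNT4c-KG, 1712, 1108 and 1262 for SCNT4c-TDG and 9417, 9264 and 9925 for PFF. Both treated groups lay between untreated embryos and PFF, and it rose in SCNT4c-KG (log2 fold change 5.90 ± 0.42 SE, adjusted p = 8.57e-08) and in SCNT4c-TDG (log2 fold change 3.78 ± 0.42 SE, adjusted p = 1.07e-05). HNRNPF (chr14:61646712-61667947), which binds G-rich RNA, had 3.94, 40.2 and 49 for SCNT4c, 983, 1015 and 949 for SCNT4c-KG and 73.6, 100.5 and 89.5 for SCNT4c-TDG. It rose in SCNT4c-KG (log2 fold change 5.50 ± 0.86 SE, adjusted p = 0.000191), and SCNT4c-TDG was lower than SCNT4c-KG (log2 fold change -3.48 ± 0.86 SE, adjusted p = 0.012).

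HNRNPLL, a paralog of HNRNPL, showed the opposite order of the treatments. It had 33.9, 27.1 and 64.8 for SCNT4c, 13.1, 0 and 37 for SCNT4c-KG and 435, 261 and 215 for SCNT4c-TDG, and was higher in SCNT4c-TDG than in SCNT4c-KG (log2 fold change 5.16 ± 1.13 SE, adjusted p = 0.00618). The assembled transcript at its locus had means of 171 in SCNT4c-KG and 289.6 in SCNT4c-TDG, and with it the difference was smaller and still called (log2 fold change 1.73, adjusted p = 0.017). HNRNPU (chr10:17475266-17497060), annotated as a non-coding RNA in this release, rose in SCNT4c-TDG (log2 fold change 2.65 ± 0.68 SE, adjusted p = 0.00772) and in SCNT4c-KG (log2 fold change 1.99 ± 0.68 SE, adjusted p = 0.0315). The second of these calls was lost without SCNT4c library a or b or SCNT4c-KG replicate 1 or 2 (log2 fold change 1.64 to 2.04, adjusted p = 0.0673 to 0.113). HNRNPH2, a relative of HNRNPF, had 103, 82.5 and 244 for SCNT4c-KG and 24.3, 26.8 and 21.4 for SCNT4c-TDG and was lower in the latter (log2 fold change -2.36 ± 0.58 SE, adjusted p = 0.0123), a call lost without SCNT4c-KG replicate 3 (log2 fold change -1.89, adjusted p = 0.0587). HNRNPD was under the minimum mean, with at most 1.53 in an embryo library. The assembled transcripts at its locus had means of 147 in SCNT4c, 111.6 in SCNT4c-KG, 227 in SCNT4c-TDG and 656 in PFF, and the sum was lower in SCNT4c than in PFF (log2 fold change -2.44, adjusted p = 0.00576) and not called in either treated group (adjusted p = 0.832 and 0.239). HNRNPUL1 rose in both as well (4.88-fold and 2.51-fold), and its call in SCNT4c-TDG was lost without SCNT4c library b or c or SCNT4c-TDG replicate 1, 2 or 3 (log2 fold change 1.23 to 1.39, adjusted p = 0.0511 to 0.0723).

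HNRNPAB and HNRNPM were called higher in both treated groups at values near 0, and the HNRNPM calls and the HNRNPAB call in SCNT4c-TDG depended on where reads were counted. HNRNPAB was listed at 0, 0 and 0 for SCNT4c, 14.7, 12.7 and 22.8 for SCNT4c-KG and 39.3, 35.3 and 61.2 for SCNT4c-TDG, while the assembled transcripts at its locus had means of 189, 595 and 212. Their sum was still called higher in SCNT4c-KG (log2 fold change 1.83, adjusted p = 0.00567) and was not called in SCNT4c-TDG (log2 fold change 0.58, adjusted p = 0.338). HNRNPM had 2.37, 0 and 0 for SCNT4c, 11.4, 7.61 and 5.7 for SCNT4c-KG and 24.3, 13 and 16.1 for SCNT4c-TDG, and with the assembled transcript of its locus, which had a mean of 133 in SCNT4c, the sign of both differences turned (-1.69 and -0.71 on the log2 scale). Its call in SCNT4c-KG (log2 fold change 2.58 ± 0.96 SE, adjusted p = 0.045) was also lost without SCNT4c library b or c or SCNT4c-KG replicate 1, 2 or 3 (log2 fold change 2.29 to 2.79, adjusted p = 0.0616 to 0.126), by edgeR (adjusted p = 0.0855), with a pseudocount of 10 (log2 fold change 0.75, adjusted p = 0.175), among all features above 0 (adjusted p = 0.0886) and with the same total in each library (adjusted p = 0.0532).

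Of the 9 PRPF genes tested, 2 rose and 0 fell in SCNT4c-KG, where 17.6% and 19.6% of all features did. In SCNT4c-TDG 3 rose and 1 fell, where 15.7% and 17.6% of all features did. The other 7 and 5 were not called, nor were 11888 and 12642 of all 18942 features. PRPF8 (chr12:47861041-47895286), the central protein of the U5 snRNP, had 1111, 1523 and 1496 for SCNT4c, 933, 1081 and 1399 for SCNT4c-KG and 2050.5, 1851 and 1328 for SCNT4c-TDG, and the intervals of its differences were -1.02 to 0.46 and -0.41 to 1.07 on the log2 scale. PRPF38A (chr6:159798692-159819252) is a component needed to activate the spliceosome and the PRPF gene with the highest level per kilobase in every embryo group (3394 in SCNT4c). It rose from 5752, 5658 and 6205 to 16129, 19540.4 and 16100.3 for SCNT4c-KG and 13086, 11117 and 13429 for SCNT4c-TDG (log2 fold change 1.55 ± 0.27 SE, adjusted p = 0.000436 and log2 fold change 1.09 ± 0.27 SE, adjusted p = 0.00583). Its paralog PRPF38B rose from 76.5, 50.7 and 68.1 to 541, 599 and 631 for SCNT4c-KG and 865, 902 and 662 for SCNT4c-TDG (log2 fold change 3.18 ± 0.39 SE, adjusted p = 2.48e-05 and log2 fold change 3.62 ± 0.39 SE, adjusted p = 8.89e-06). PRPF38A was higher in SCNT4c than in PFF (5.67-fold) and PRPF38B lower (6.35-fold).

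PRPF39, which works with U1 snRNP, was higher in SCNT4c-TDG than in SCNT4c-KG (2.78-fold, adjusted p = 0.0425), a call lost without SCNT4c-KG replicate 1, 2 or 3 or SCNT4c-TDG replicate 1, 2 or 3 (log2 fold change 1.21 to 1.71, adjusted p = 0.0626 to 0.16), with a pseudocount of 0.1 (adjusted p = 0.0502) and among all features above 0 (adjusted p = 0.0674). PRPF40B, which bridges the ends of the intron, had 132, 104 and 68.1 for SCNT4c, 40.8, 73.6 and 12.8 for SCNT4c-KG and 6.69, 18.4 and 10.7 for SCNT4c-TDG and fell in SCNT4c-TDG (log2 fold change -3.03 ± 0.77 SE, adjusted p = 0.00709). With the assembled transcripts of its locus it was called lower in SCNT4c-KG too (log2 fold change -1.66, adjusted p = 0.013). PRPF19, a ubiquitin ligase of the activated spliceosome, had 92.3, 58.5 and 67.3 for SCNT4c, 84.9, 85 and 2.85 for SCNT4c-KG and 15.9, 16.9 and 7.65 for SCNT4c-TDG, with no call of the gene's own entry. With an assembled transcript at its locus, whose mean was 143 in SCNT4c, 1459 in SCNT4c-KG and 75 in SCNT4c-TDG, PRPF19 was called higher in SCNT4c-KG (log2 fold change 2.83, adjusted p = 6.35e-05) and lower in SCNT4c-TDG (log2 fold change -1.24, adjusted p = 0.023). SCNT4c-TDG was then also lower than SCNT4c-KG (log2 fold change -4.07, adjusted p = 1.67e-05). PRPF31 and PRPF6 of the tri-snRNP were under the minimum mean in the embryos, with at most 26.1 and 25.8 in an embryo library, and PRPF6 had 355, 332 and 365 for PFF. With its assembled transcript PRPF31 was called lower in SCNT4c-TDG (log2 fold change -3.09, adjusted p = 0.000279).

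Against the donor cells, 9 of 15 tested hnRNP genes were lower in SCNT4c and 1 higher, 7 of 11 PRPF genes lower and 3 higher, and 5 of 10 SF3 and U2AF genes lower, where 38.5% of all features were lower and 39.7% higher. With assembled transcripts added, 18 of 78 members were called higher and 35 lower, with 6 PRPF genes lower and 5 higher and SF3B5 higher (log2 fold change 3.48, adjusted p = 0.000818), and the calls of PRPF40B and PRPF4B ended (adjusted p = 0.988 and 0.797). HNRNPL (log2 fold change -6.61 ± 0.28 SE, adjusted p = 3.59e-06), PRPF6 (log2 fold change -6.60 ± 0.41 SE, adjusted p = 1.81e-05) and SRSF2 (log2 fold change -6.49 ± 0.92 SE, adjusted p = 0.000741) were among the lowest in SCNT4c relative to PFF. SNRPC (log2 fold change 3.16 ± 0.12 SE, adjusted p = 2.56e-06), LSM10 (log2 fold change 2.95 ± 0.18 SE, adjusted p = 1.44e-05) and HNRNPA1 (log2 fold change 2.82 ± 0.13 SE, adjusted p = 5.32e-06) were among the highest. PRPF18, a second-step splicing factor, was listed with 2.44, 2.55 and 0 for PFF and 63.1, 48.9 and 111 for SCNT4c. These cells differ from embryos in kind and in RNA extraction at once, and these cannot be told apart. The calls of LSM7 and LSM2 in this comparison were lost without SCNT4c library c (log2 fold change -0.84, adjusted p = 0.00378) and without SCNT4c library b (log2 fold change -1.73, adjusted p = 0.0518), in that order. Quantile normalization ended both as well (log2 fold change -0.13, adjusted p = 0.717 for LSM7 and log2 fold change -0.98, adjusted p = 0.131 for LSM2). The calls of LSM7, LSM2, LSM12, PRPF39, SF3A1 and SRSF6, all lower in SCNT4c, ended by edgeR, by DESeq2, when every library had the same total and after quantile normalization. Those of SRSF1 and SNRPA ended by edgeR and DESeq2, and that of SNRPB by DESeq2. The SNRPA call also ended with its assembled transcript added (adjusted p = 0.0744) and without PFF replicate 3 or SCNT4c library b.

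Across the whole table, 52 of the 81 members had an assembled transcript at their locus and 29 overlapped another annotated gene, so reads of such genes could be counted elsewhere, and the strand setting of the counting is not given in the sources used here. With assembled transcripts added, 80 members were tested, and 40 were called up and 4 down in SCNT4c-KG, against 17.6% and 19.6% of all features, and 29 up and 12 down in SCNT4c-TDG, against 15.6% and 17.6%. HNRNPA3, listed at 0 as a gene, then had means of 117 in SCNT4c, 258 in SCNT4c-KG and 299 in SCNT4c-TDG. HNRNPLL and SRSF7 share 1 such transcript, which was added to both.

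In both treated groups the calls went with gene length. Of all annotated genes tested, 47.8% of those with under 750 bases of exon rose in SCNT4c-KG, 32.6% of those with 750 to 1500, 22% of those with 1500 to 3000 and 14.1% of those with over 3000. Of the members, 5 of 5, 13 of 15, 10 of 20 and 12 of 30 rose in the same classes. In SCNT4c-TDG the shares of all genes were 36%, 24.6%, 15% and 16.8%, and the members' counts were 5 of 5, 8 of 15, 6 of 20 and 10 of 30. The expressed Sm core genes measure 462 to 1909 bases of exon, apart from SNRPB with 3693. The members' share was above that of all annotated genes in every class of both comparisons, and the part of length in the result was not tested.

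**Figure D5:**
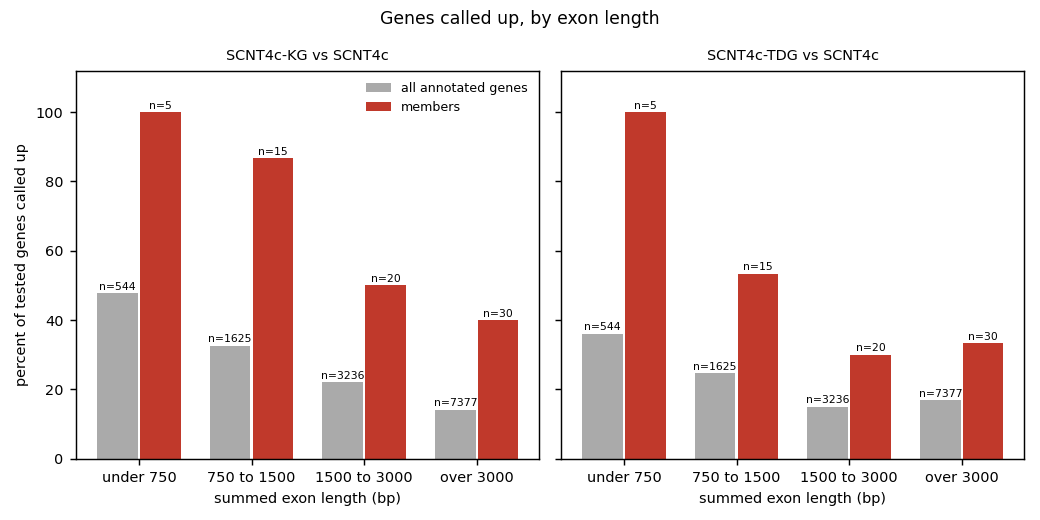
Percent of tested genes called up in SCNT4c-KG and in SCNT4c-TDG against SCNT4c, by summed exon length in bases, for all annotated genes (grey) and for members (red), with the number of genes above each bar. Both sets have their highest share in the class under 750 bases, where the members number 5.

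The rest of the splicing machinery was covered by a list of 138 genes found in the table, of which 110 were tested. In SCNT4c-KG, 43 rose and 11 fell, and in SCNT4c-TDG 27 rose and 11 fell, against the background shares given above. The median log2 fold change was 0.75 and 0.31. In the exon junction complex, which marks spliced mRNA, 5 of 8 tested genes rose in SCNT4c-KG and 7 of the 8 were lower in SCNT4c-TDG than in SCNT4c-KG, where 9.13% of all features were. In SCNT8c against SCNT4c, 4 of the 110 rose (3.64%) and 2 fell (1.82%), close to the 2.62% and 3.16% of all features. In SCNT4c-TDG against SCNT4c-KG, 10 were higher and 30 lower (9.09% and 27.3%, background 7.07% and 9.13%). In SCNT4c against PFF, where 116 were tested, 32 were higher and 49 lower (27.6% and 42.2%, background 39.7% and 38.5%).

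The largest rise of this list in both treated groups was in TXNL4A, a small protein of the U5 snRNP. Its mean was 63.5 ± 17.2 (SD, n = 3) in SCNT4c, 3914 ± 1039.7 in SCNT4c-KG and 4304 ± 264 in SCNT4c-TDG (log2 fold change 5.93 ± 0.35 SE, adjusted p = 1.99e-08 and log2 fold change 6.10 ± 0.35 SE, adjusted p = 4.73e-08). CLK1, a kinase of SR proteins, rose from 84.7 ± 6.26 to 3013 ± 1029.9 and 4804 ± 1245. TGS1, which caps small nuclear RNAs, rose in SCNT4c-KG (log2 fold change 5.12 ± 0.35 SE, adjusted p = 6.39e-08), and the helicase DHX15 in SCNT4c-TDG (log2 fold change 5.24 ± 0.50 SE, adjusted p = 2.61e-06). DYRK1A, another kinase that acts on splicing factors, fell from 21649 ± 1628 to 3213 ± 540.3 and 3436 ± 518. RNPS1 and SMN1, the latter needed to load the Sm ring, fell in SCNT4c-TDG (log2 fold change -2.70 ± 0.22 SE, adjusted p = 5.54e-07 and log2 fold change -2.33 ± 0.24 SE, adjusted p = 6.45e-06). The falls of the splicing regulators MBNL2 and ESRP2 in SCNT4c-KG (-4.09 and -4.20 on the log2 scale) started from means of 76.2 ± 39.1 and 81.7 ± 47.8 in SCNT4c.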

How the data were processed

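RNA-seq was run on 15 libraries, 3 in each of 5 groups. According to the study's methods and the submitters' processing notes, the authors called bases with CASAVA 1.8.2, used Trimmomatic 0.39 for trimming and STAR 2.5.3a for alignment to the build Sscrofa11.1, added transcripts assembled by StringTie 2.1.2 to the annotation, and counted uniquely mapped reads with HTSeq. The deposited signal is those counts scaled by 1 factor per library, whose origin, like the strand setting, is not given in the sources used here. All values (100%) were multiples of what 1 read is worth in their library, to within 0.1 read, so whole reads were recovered for the count tests. Single values therefore carry counting error as well as the spread between libraries.

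The table had 43535 entries, 241 of which repeated another and were removed, leaving 43294 features, of which 15070 were assembled transcripts without a gene name. This took the members from 83 entries to 81. Of these, 70 were tested in each comparison.

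Values were tested as log2(value + 1) with limma 3.58.1 (trend) in R 4.3.3, on features whose mean over the fitted libraries reached 10. The 12 embryo libraries were fitted together for 4 comparisons, and SCNT4c against PFF in its own 6 libraries. Fold changes are on the log2(value + 1) scale, which understates low genes. A call needed a Benjamini-Hochberg adjusted p under 0.05 over all features and a fold change above 2. Alternatives were other pseudocounts, filters, scalings, edgeR 4.0.16, DESeq2 1.42.0, another choice of libraries, no fold limit, addition of assembled transcripts at a locus, and leaving out each library. Figures were drawn with matplotlib 3.10.9.

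The members and lists were chosen with earlier results of these data known. The genes named by rule were the 5 largest rises and 5 largest falls of each comparison among called members whose groups do not overlap and whose mean is at least 100 in the higher group, the member with the highest embryo mean in each role, fixed family contrasts, and 3 rises and 3 falls of the other splicing genes for each treatment. Members outside the rule, such as SNRPE, SNRPD3, SNRPB2, LSM3, LSM5, LSM8, HNRNPUL1 and PRPF38B, are named to complete their role and were chosen after their values were seen. SNRPN was not in the table, and 1 PRPF gene that entered the counts is not reported here by name. Sequences were read from the RefSeq genome of Sscrofa11.1.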

Additional observations from a re-analysis of the deposited data

How the results depend on the processing

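Of 160 single gene results, 116 kept direction and call under every alternative, and over all 2729 alternatives 184 lost the call and 2 turned sign. The alternative without a fold limit reuses the main fit, so no call could be lost there. Its outcomes are among the 2729 and say nothing about stability. Both that turned were HNRNPM with assembled transcripts added (log2 fold change -1.69 in SCNT4c-KG and -0.71 in SCNT4c-TDG), at values near 0. The cause of the changes below was not tested.

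The SCNT8c comparison was the least stable. The share of all features moved with the setting too and is given in brackets. Members called up there were 4 (2.62%), with 2 among all features above 0 (0.738%), 13 by DESeq2 (10.4%) and 0 in a fit of the 2 groups (0%). When a library was left out they were between 0 and 15 (0.0368 to 12.4%). Members called down, 0 in the main fit (3.16%), were then between 0 and 5 (0.0793 to 19.9%). Both highest counts came without SCNT8c replicate 3. Other splicing genes called up, 4 in the main fit, were 8 with pseudocount 10 (3.48%), 8 with minimum mean 50 (6.07%) and 12 by edgeR (3.53%). They were 26 by DESeq2 (10.4%) and 0 in a fit of the 2 groups (0%). Those called down, 2 in the main fit, were 1 with pseudocount 10 (5.3%), minimum mean 50 (6.43%), quantile normalization (2.91%) or edgeR (0.913%). They were 0 among all features above 0 (0.936%) or in a fit of the 2 groups (0%).

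In SCNT4c-TDG against SCNT4c-KG, members called up were 5 (7.07% of all features), with 3 at pseudocount 0.1 (6.38%) and 3 among all features above 0 (3.64%). They were 9 in a fit of the 2 groups (11.4%) and between 3 and 4 when a library was left out (3.65 to 5.95%). Other splicing genes called up, 10 in the main fit, were 16 with the same total in each library (10.5%). Those called down, 30 in the main fit (9.13%), were 19 with quantile normalization (8.89%). In SCNT4c-KG against SCNT4c, other splicing genes called down, 11 in the main fit (19.6%), were 7 by DESeq2 (17.8%).

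The log2 ratio of the members' summed share was 1.06 in SCNT4c-KG, 0.31 in SCNT4c-TDG and 0.76 for SCNT4c against PFF, and taken as the median member it was 1.72, 1.62 and -1.78, the last with its sign turned.

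With the replicate number as a replicate block, SCNT4c-TDG against SCNT4c-KG gave 6 members up and 22 down, where 6.27% and 8.7% of all features were. The main fit gave 5 and 24, where 7.07% and 9.13% were. The block gave adjusted p = 0.0571 for SNRPD1 and 0.0652 for SF3A1. Same-numbered libraries of the 3 numbered embryo groups deviated together with r between -0.0576 and 0.204, 1 of 9 pairs was over 0.1, and 5 of 9 libraries were closest to one of their own number, so these numbers were taken as names only. No paired analysis was possible because of conflicting replicate numbers for the comparisons with SCNT4c. Low depth limits the members under 10 in a group.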
